A study of Mus musculus with 8 samples.

Results

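Cohesin is the ring of SMC and kleisin proteins that holds sister chromatids together. The 10 genes described here are its core ring (Smc1a, Smc3 and Rad21), the paired Stag1 and Stag2 subunits, the loader Nipbl, the acetyltransferases Esco1 and Esco2, the protector Cdca5 (sororin) and the protease Espl1 (separase). They were taken by symbol from the array platform's annotation, which assigned them 28 of the array's 45101 probe sets and 10 of its 18193 named genes. No measured value entered this choice. The symbols were picked with earlier results of these data known.

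The study sorted tumour cells on a reporter for PSF1, the product of the replication gene Gins1. LLC (a mouse lung carcinoma line named after Lewis) and colon26 (a mouse colon carcinoma line) both carried EGFP driven by the cloned mouse PSF1 promoter as a stable insert, and sorted cells with high EGFP were set against sorted cells with low EGFP. The 4 groups were LLC EGFP-high and LLC EGFP-low, from subcutaneous tumours dissected 4 weeks after inoculation, and colon26 EGFP-high and colon26 EGFP-low, from tumours dissected after 2 weeks. Each group had 2 arrays, called biological replicates and numbered 1 and 2. All groups carried the reporter, and the labels give neither the strain and age of the mice, nor whether a line was 1 clone, nor whether the numbers stand for separate tumours, so p-values measure only the spread among these arrays.

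In a dividing cell, NIPBL loads cohesin onto chromatin, where the ring also shapes chromosome loops through the whole cell cycle. During DNA replication ESCO2, working at the fork, and ESCO1, which acts throughout the cycle, acetylate SMC3, and sororin then locks the ring around both sister DNAs. At mitosis most cohesin is taken off chromosome arms by mitotic kinases, the part at centromeres is protected by shugoshin, and separase cuts RAD21 at anaphase so that the sisters part.

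The 3 genes of cohesion establishment and dissolution, Esco2, Cdca5 and Espl1, were 2.99-fold to 4.19-fold higher in EGFP-high cells of either line. The ring genes Smc1a and Rad21 were 1.41-fold and 1.43-fold higher over both lines. Smc3, Stag1, Stag2, Nipbl and Esco1 did not pass the main test in any comparison of the sort. The calls of Smc1a and Rad21 ended when single pairs were left out (any for Smc1a, most for Rad21). Smc3 and Stag1 passed over both lines under some other settings. Both points are given below. Values are RMA values on the log2 scale, and a gene's value is that of its probe set with the highest mean. The words rose and fell are kept for adjusted p-values under 0.05 from limma, in a fit that pairs high with low arrays by line and number and adjusts by Benjamini-Hochberg over the 12177 genes with values above 5 on at least 2 arrays. All 10 genes passed that filter.

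The arrays and the sort had properties that touch every value below. Gins1 itself rose in EGFP-high cells by 1.28 in LLC (SE 0.21, limma adjusted p = 0.0033) and by 1.07 in colon26 (SE 0.21, limma adjusted p = 0.017, or 0.052 with a block by number alone). The colon26 call also ended after quantile normalization (0.90, limma adjusted p = 0.08). Without the pair as a block neither line passed (limma adjusted p = 0.23 in LLC and 0.64 in colon26). The change was 1.19 in LLC without LLC pair 2, and in colon26 1.41 without colon26 pair 1 and 0.73 without colon26 pair 2. For 4 control transcripts, the median excess of the 3′ over the 5′ probe set was 2.41 to 2.70 (log2) on the 4 arrays numbered 1 and −0.01 to 0.35 on the 4 numbered 2, so the 2 numbers differed in this measure in every group. The colon26 EGFP-low array numbered 2 stood apart, with 11869 genes above 5, against 10565 to 11175 on the other arrays. In its pair the median change of all genes was 0.18 and 65.3% of all genes were higher in EGFP-high, against medians of 0.02 to 0.05 in the other pairs, and results without this pair are given below. Genes used as markers of host cell types moved with the sort. Of 11 fibroblast markers 9 fell in LLC and 5 in colon26, and of 11 macrophage markers tested (12 listed) 9 fell in LLC and 10 in colon26. Of 5 endothelial markers tested (8 listed) 0 fell in LLC and 2 in colon26, and of 5 lymphocyte markers tested (8 listed) 0 and 1 did. The lymphocyte list includes Ptprc, which is not particular to lymphocytes. In colon26 Ptprc read 4.79 and 3.85 in EGFP-high against 8.77 and 5.54 in EGFP-low. Cd3e read 5.62 and 5.48 against 5.68 and 5.76, and Cd8a 5.92 and 5.63 against 6.05 and 6.67. None of these lists had a gene that rose. The summed macrophage signal, on the linear scale, was 795 and 901 in LLC EGFP-high against 2668 and 2397 in LLC EGFP-low, and 1425 and 2234 in colon26 EGFP-high against 10504 and 6743 in colon26 EGFP-low. The summed fibroblast signal was 10832 and 10279 in LLC EGFP-high against 32209 and 48149 in LLC EGFP-low, and 33496 and 34914 in colon26 EGFP-high against 49388 and 39936 in colon26 EGFP-low. The part of these cells in the results was not tested, and fewer cells of a type and less RNA per cell cannot be told apart in sorted bulk samples. Of 5 epithelial markers, Krt8 and Krt18 lay at or above 8.43 on every LLC array. On the colon26 arrays Krt8 read 5.31 to 5.95 and Krt18 3.84 to 5.05. Epcam read 6.70 to 7.18 on the LLC and 5.99 to 6.43 on the colon26 arrays, and Cdh1 and Krt19 stayed under 5 on all 8. Of 4 lung markers Nkx2-1, Sftpc and Scgb1a1 stayed under 5 on all 8 arrays and Sftpb read 5.14 to 5.82. Of 4 colon markers Krt20 lay at or above 11.60 on every colon26 array, Cdx2 read 5.08 to 5.62 on all 8, and Cdx1 and Vil1 stayed under 5.

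Promoter sequence was at hand for 5 of the 10 genes, as RefSeq windows of the assembly GRCm38.p6 that run from 250 bases before to 50 after an annotated start. The windows of the strongly rising Cdca5 (chr19:6084847-6085146, plus strand) and Espl1 (chr15:102296043-102296342, plus strand) are shown with that of the modestly rising Smc1a (chrX:152016178-152016477, plus strand), since genes of mitosis often carry a cell cycle homology region (CHR) in this place. Capitals mark matches, on either strand, to the CHR letters TTTGAA or TTCGAA, to the CCAAT box (CCAAT, read as ATTGG on the other strand), and to the E2F words TTTCCCGC, TTTGGCGC, TTTCGCGC and TTTGCCGC.
Cdca5: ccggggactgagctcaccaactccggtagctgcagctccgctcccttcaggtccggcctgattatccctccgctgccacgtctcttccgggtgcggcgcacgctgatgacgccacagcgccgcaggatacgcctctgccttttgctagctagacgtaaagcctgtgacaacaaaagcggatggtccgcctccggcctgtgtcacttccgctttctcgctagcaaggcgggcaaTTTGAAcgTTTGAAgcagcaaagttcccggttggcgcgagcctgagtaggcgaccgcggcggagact
Espl1: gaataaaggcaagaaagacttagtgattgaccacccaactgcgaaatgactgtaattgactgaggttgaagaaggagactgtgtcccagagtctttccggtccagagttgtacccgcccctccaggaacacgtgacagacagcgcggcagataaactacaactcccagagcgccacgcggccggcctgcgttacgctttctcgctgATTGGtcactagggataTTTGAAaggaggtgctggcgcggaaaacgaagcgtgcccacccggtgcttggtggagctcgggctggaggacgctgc
Smc1a: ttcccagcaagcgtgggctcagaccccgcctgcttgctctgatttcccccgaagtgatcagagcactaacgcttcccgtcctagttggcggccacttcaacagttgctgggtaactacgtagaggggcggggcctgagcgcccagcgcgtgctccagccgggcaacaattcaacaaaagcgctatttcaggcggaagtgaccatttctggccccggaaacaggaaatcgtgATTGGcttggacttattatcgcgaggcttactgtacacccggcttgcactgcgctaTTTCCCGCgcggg
Cdca5 had TTTGAA at 17 and again at 9 bases before the start, and neither a CCAAT box nor an E2F word. Espl1 had TTTGAA at 27 bases before the start and a CCAAT box, read on the other strand, at 44 before it. Smc1a had a CCAAT box at 19 bases before the start and TTTCCCGC at 38 after it, Stag1 had a CCAAT box at 78 and TTTCCCGC at 17 bases before the start, and Smc3 had none of these matches. No matches overlapped in these 5 windows. Of all 32851 windows in the table, 19.2% held a CHR word, 2.31% held at least 2 copies of TTTGAA, 37.4% held a CCAAT box and 2.26% held an E2F word. These matches describe letters in a window, and no factor's binding was measured.

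**Figure D1:**
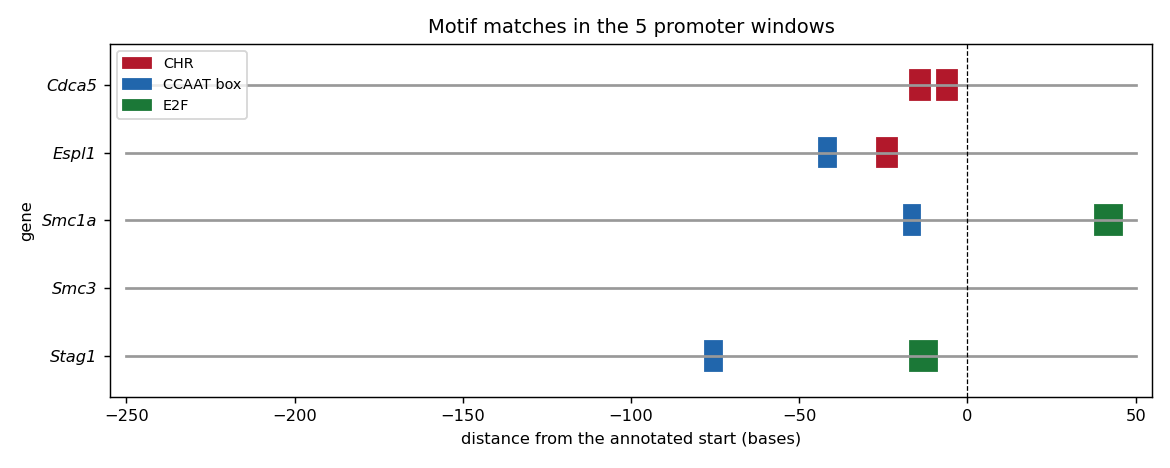
Positions of the motif matches in the 5 promoter windows, in bases from the annotated start (dashed line), for Cdca5, Espl1, Smc1a, Smc3 and Stag1; boxes are CHR words (red), CCAAT boxes (blue) and E2F words (green). CHR words are seen in Cdca5 (17 and 9 bases before the start) and Espl1 (27 before), E2F words in Smc1a and Stag1, and none in Smc3.

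Esco2, the acetyltransferase that acts on SMC3 at replication forks, rose in both lines. It read 7.43 and 6.53 on the LLC EGFP-high arrays numbered 1 and 2, against 5.49 and 4.84 on the LLC EGFP-low arrays. In colon26 it read 7.32 and 6.82 in EGFP-high against 6.03 and 3.97 in EGFP-low. In each line 1 low array lay under 5, where background limits how far a value can drop. The rise was 1.82 in LLC (SE 0.30, limma adjusted p = 0.0039), or 3.52-fold, and 2.07 in colon26 (SE 0.30, limma adjusted p = 0.0040), or 4.19-fold. The other Esco2 probe set, 1456311_x_at, stayed between 3.17 and 4.26 and did not pass the filter on low values, as the 1 of the 28 probe sets that did not. The suffix _x_at marks probes that can match other transcripts too.

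Cdca5 encodes sororin, which binds acetylated cohesin and holds off its release. It read 10.79 and 10.58 in LLC EGFP-high against 8.97 and 8.43 in LLC EGFP-low, and 9.98 and 9.99 in colon26 EGFP-high against 9.05 and 7.75 in colon26 EGFP-low. The 2 colon26 EGFP-high arrays were almost equal while their EGFP-low partners were 1.30 apart. The rise was 1.99 in LLC (SE 0.27, limma adjusted p = 0.0015), or 3.97-fold, and 1.58 in colon26 (SE 0.27, limma adjusted p = 0.0095), or 3-fold. A second probe set, 1448466_at, with a mean of 7.57 against 9.44, gave rises of 2.00 in LLC and 1.71 in colon26 (adjusted p = 0.0021 and 0.010 in limma over 21773 probe sets). The 2 probe sets of Cdca5 thus differed in level and not in direction.

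Espl1 encodes separase, the protease that cuts RAD21 at anaphase, and had 1 probe set. It read 7.44 and 9.26 in LLC EGFP-high against 6.12 and 7.33 in LLC EGFP-low, and 6.94 and 8.74 in colon26 EGFP-high against 5.83 and 6.69 in colon26 EGFP-low. The arrays numbered 2 were higher than those numbered 1 in all 4 groups, by 0.86 to 1.81, and within each number the high array lay above the low one. The rise was 1.62 in LLC (SE 0.25, limma adjusted p = 0.0025), or 3.08-fold, and 1.58 in colon26 (SE 0.25, limma adjusted p = 0.0058), or 2.99-fold.

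**Figure D2:**
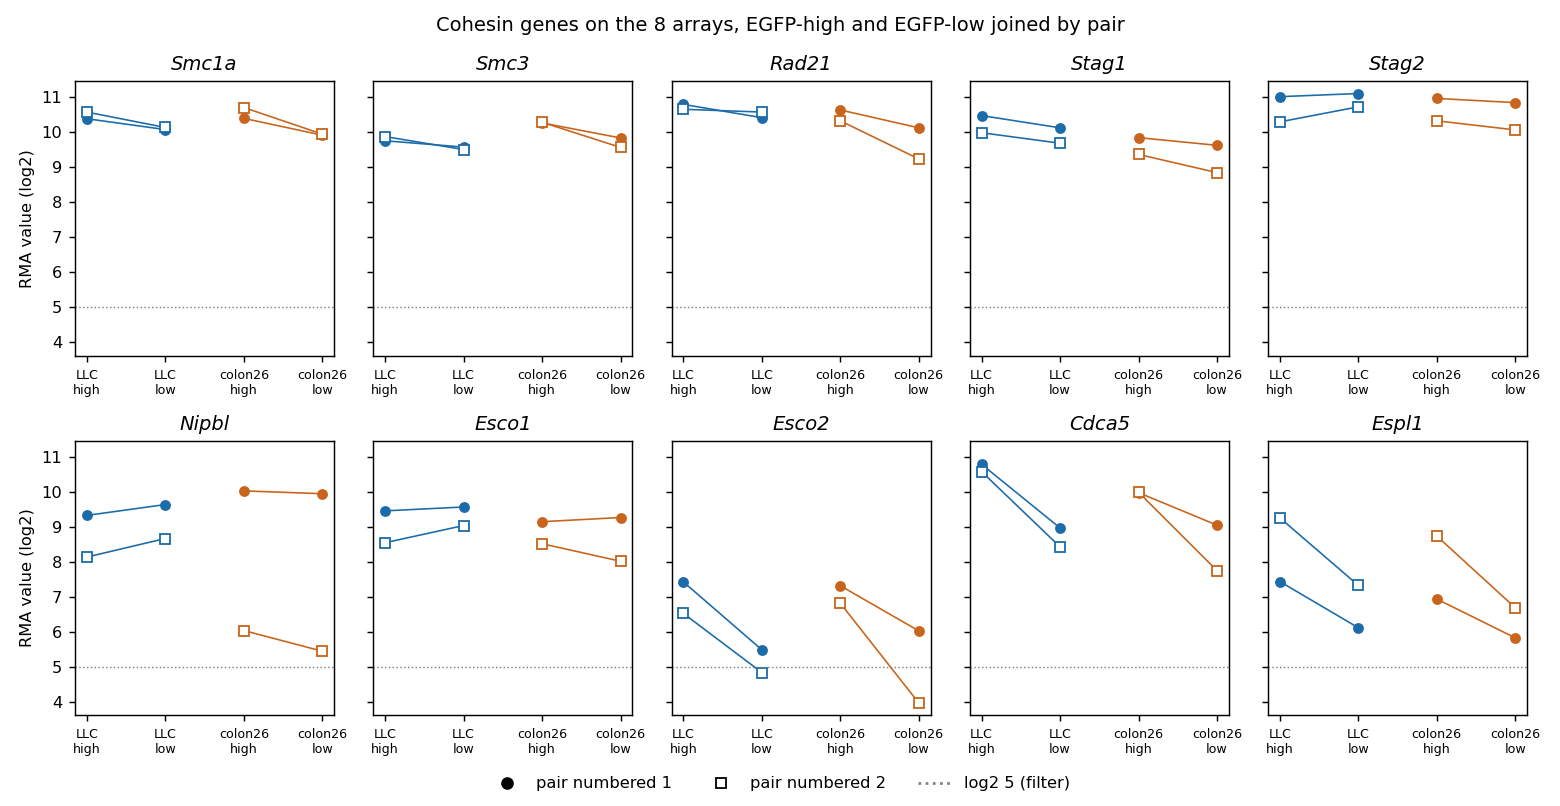
RMA values (log2) of the 10 genes on the 8 arrays; lines join the EGFP-high and EGFP-low arrays of a line and number, filled circles are pair 1 and open squares pair 2, LLC is blue and colon26 orange, and the dotted line is the filter at log2 5. Esco2, Cdca5 and Espl1 are higher in the EGFP-high array of all 4 pairs, while Nipbl on the colon26 arrays numbered 2 stands 3.99 (high) and 4.50 (low) below the arrays numbered 1.

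These 3 genes were the members called in either line, all higher, where 4.98% of all genes rose and 6.04% fell in LLC, and 2.18% rose and 1.58% fell in colon26. The split of all calls in colon26 moved with the scaling, from 266 higher and 193 lower genes to 43 and 109 after quantile normalization and 539 and 232 after median centring. The LLC calls of all 3 held when any 1 of the 4 pairs was left out. For LLC, leaving out either colon26 pair is 1 and the same fit, that of the LLC arrays alone. In colon26 none of the 10 genes passed without the pair numbered 2, when Esco2, Cdca5 and Espl1 changed by 1.29, 0.93 and 1.11 in the pair that was left (adjusted p = 0.14, 0.30 and 0.35 in limma). Without the pair numbered 1 Esco2 and Cdca5 passed and Espl1 did not (change 2.05, limma adjusted p = 0.057), and after quantile normalization Espl1 alone passed. Without the pair as a block none of the 10 passed limma in LLC (adjusted p from 0.27 to 1, with 2 at an unadjusted p under 0.05) or in colon26 (0.83 to 1, with 4). In that fit 0% of all genes rose in either line, 0% fell in LLC and 0.0246% in colon26. At an unadjusted limma p under 0.05 it had 794 of 12177 genes in LLC and 438 in colon26. With the number alone as a block, shared by the lines and added after seeing the data, Esco2, Cdca5 and Espl1 again passed in LLC (limma adjusted p = 0.02, 0.0085 and 0.011) and in colon26 (0.029, 0.044 and 0.027), where 3.13% of all genes rose and 3.46% fell in LLC, and 0.846% rose and 0.829% fell in colon26.

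The core ring genes moved less. Smc1a, the SMC subunit paired with SMC3, read 10.39 and 10.58 in LLC EGFP-high against 10.08 and 10.14 in LLC EGFP-low, and 10.40 and 10.71 in colon26 EGFP-high against 9.92 and 9.95 in colon26 EGFP-low. The high array lay above the low one in all 4 pairs, by 0.32 to 0.75. Rad21, the kleisin that closes the ring and is cut by separase, read 10.80 and 10.66 in LLC EGFP-high against 10.42 and 10.58 in LLC EGFP-low, and 10.64 and 10.33 in colon26 EGFP-high against 10.13 and 9.24 in colon26 EGFP-low. The 2 LLC groups of Rad21 were separated by 0.08 at their nearest, and the largest gap was that of the colon26 pair numbered 2, at 1.09. Smc3, the subunit that ESCO1 and ESCO2 acetylate, read 9.76 and 9.88 in LLC EGFP-high against 9.58 and 9.51 in LLC EGFP-low, and 10.27 and 10.29 in colon26 EGFP-high against 9.84 and 9.57 in colon26 EGFP-low.

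None of the 3 ring genes passed in a single line in the paired fit. In colon26 Rad21 passed with a filter of log2 7 (limma adjusted p = 0.025), median centring (0.014), trend and robust moderation (0.0078) and the mean of its probe sets (0.03), and Smc1a with trend and robust moderation (0.026). Over both lines, as the mean of the 2 changes, Smc1a rose by 0.50 (SE 0.13, limma adjusted p = 0.029) and Rad21 by 0.52 (SE 0.14, limma adjusted p = 0.040). The change of Smc3 over both lines was 0.42 (SE 0.13, limma adjusted p = 0.057), and its interval of 0.14 to 0.71 overlapped those of the other ring genes. With Esco2 (1.94), Cdca5 (1.79) and Espl1 (1.60), 5 of the 10 genes rose over both lines and 0 fell, where 7.47% of all genes rose and 5.57% fell. In all, 7 of the 10 were higher in all 4 pairs, a pattern that 21.4% of all genes showed, while 0 of the 10 were lower in all 4, as 9.24% of all genes were. The median change of the 10 genes was 0.46 over both lines, beside 0.04 for all genes tested.

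The calls of Smc1a and Rad21 did not hold when most single pairs were left out, though the changes stayed positive. A fit without a pair also has fewer arrays to measure the spread. That of Smc1a ended when any 1 pair was left out, with changes of 0.43 to 0.57 (limma adjusted p = 0.051 to 0.26). That of Rad21 ended without LLC pair 1 (0.44, limma adjusted p = 0.26), LLC pair 2 (0.59, limma adjusted p = 0.11) or colon26 pair 2 (0.37, limma adjusted p = 0.19), and just passed without colon26 pair 1 (0.66, limma adjusted p = 0.05). The Rad21 call also ended after quantile normalization (0.45, limma adjusted p = 0.063) with no filter on low values (0.52, limma adjusted p = 0.063) and with the number alone as a block (0.52, limma adjusted p = 0.12). That of Smc1a ended when its probe sets were averaged (0.38, limma adjusted p = 0.066). Smc3, in turn, passed with a filter of log2 7 (limma adjusted p = 0.031), with median centring (0.045) and with trend and robust moderation (0.017), and Stag1 with the last of these (0.048). Without the pair as a block 0 of the 10 genes passed over both lines (limma adjusted p from 0.11 to 1, with 5 at an unadjusted p under 0.05), where 0% of all genes rose and 0.0575% fell. Of all 12177 genes 982 were at an unadjusted limma p under 0.05 in that fit. With the number alone as a block 4 of the 10 rose, Smc1a (limma adjusted p = 0.041) with Esco2, Cdca5 and Espl1, where 5.15% of all genes rose and 3.49% fell. Among the pairs numbered 2 alone, fitted with 1 change shared by the lines, Esco2, Cdca5 and Espl1 passed, and among those numbered 1 alone 0 genes did.

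The Stag subunits, which sit on the ring and are alternatives to each other, did not move alike in the pairs. Stag1 read 10.48 and 9.99 in LLC EGFP-high against 10.13 and 9.69 in LLC EGFP-low, and 9.85 and 9.37 in colon26 EGFP-high against 9.63 and 8.85 in colon26 EGFP-low. It was higher in the high array of all 4 pairs, by 0.21 to 0.52, and did not pass (change over both lines 0.35, SE 0.13, limma adjusted p = 0.11). Stag2 read 11.02 and 10.30 in LLC EGFP-high against 11.11 and 10.73 in LLC EGFP-low, and 10.97 and 10.33 in colon26 EGFP-high against 10.85 and 10.07 in colon26 EGFP-low. It changed by −0.09 and −0.42 between the paired LLC arrays, by 0.12 and 0.26 between those of colon26, and by −0.03 over both lines (95% interval −0.32 to 0.25, limma adjusted p = 0.91). The change of Stag1 exceeded that of Stag2 in 4 of 4 pairs, by 0.09 to 0.72, a difference that was not tested.

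The acetyltransferases parted more widely. Esco1, the paralog that is not tied to replication, read 9.46 and 8.55 in LLC EGFP-high against 9.57 and 9.04 in LLC EGFP-low, and 9.15 and 8.52 in colon26 EGFP-high against 9.27 and 8.02 in colon26 EGFP-low. High and low arrays overlapped in both lines, and the change over both lines was −0.05 (95% interval −0.38 to 0.27, limma adjusted p = 0.86), whereas that of Esco2 had an interval of 1.47 to 2.42. The change of Esco2 exceeded that of Esco1 in 4 of 4 pairs, by 1.41 to 2.35, and this difference too was not tested as such. The second Esco1 probe set, 1424325_at, gave 0.19 over both lines (adjusted p = 0.54 in limma over probe sets).

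Nipbl, the subunit of the loader that opens the ring onto DNA, did not pass. Its probe set of highest mean, 1437158_at, read 9.33 and 8.14 in LLC EGFP-high against 9.64 and 8.67 in LLC EGFP-low, and 10.03 and 6.04 in colon26 EGFP-high against 9.95 and 5.45 in colon26 EGFP-low. The colon26 arrays numbered 2 thus stood 3.99 (EGFP-high) and 4.50 (EGFP-low) below those numbered 1, gaps reached by 0.179% and 0.119% of probe sets in these groups. The paired changes were −0.42 in LLC (SE 0.20, limma adjusted p = 0.21) and 0.33 in colon26 (SE 0.20, limma adjusted p = 0.42). A second Nipbl probe set, 1430309_at, had gaps of −2.06 and −2.69 in the colon26 EGFP-high and EGFP-low groups, against −0.07 and −0.52 in the LLC groups. The other 3 Nipbl probe sets had gaps between −0.14 and −1.77 in all 4 groups.

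**Figure D3:**
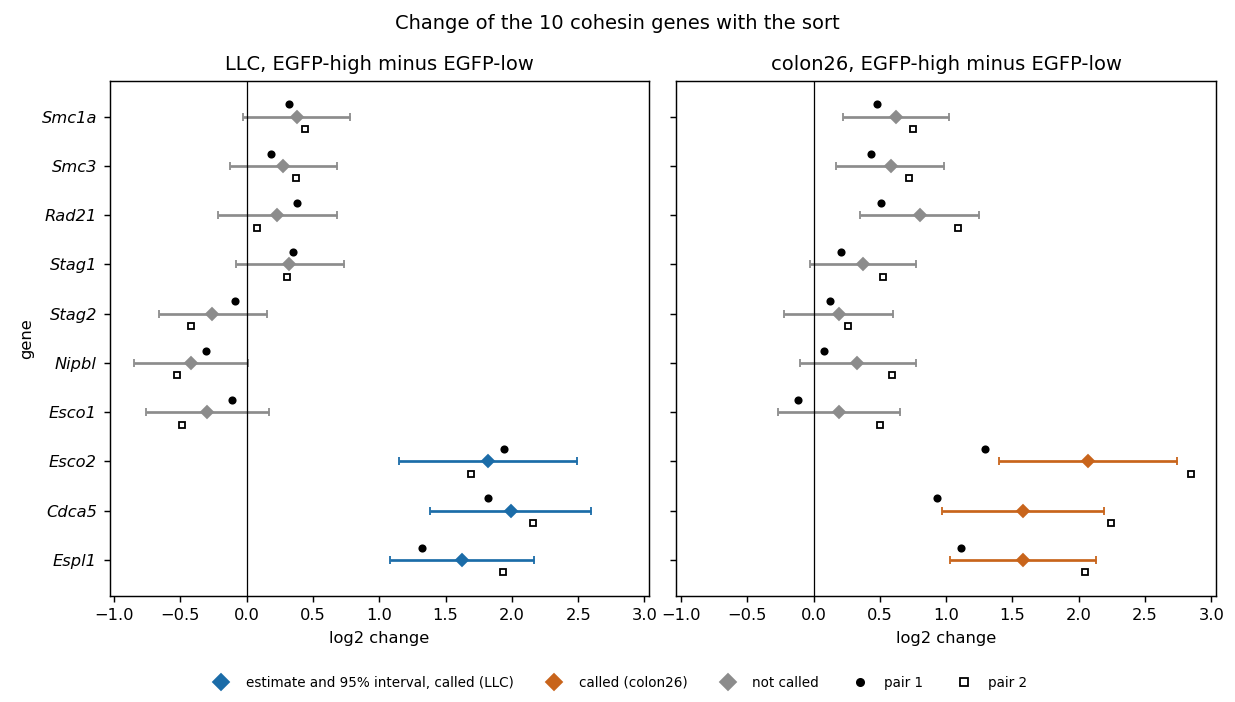
Log2 change of the 10 genes, EGFP-high minus EGFP-low, in LLC (left) and colon26 (right); diamonds with bars are the paired limma estimate and its 95% interval, coloured where adjusted p was under 0.05, and small circles and squares are pairs 1 and 2. Esco2, Cdca5 and Espl1 are the coloured genes in both panels, at 1.58 to 2.07, and the other 7 lie between −0.42 and 0.80.

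Across the 27 probe sets that passed the filter, the calls followed the genes in most cases. Over both lines 6 rose and 1 fell, where 5.72% of all probe sets rose and 4.47% fell. The 6 were both of Cdca5, those of Esco2 and Espl1, 1417830_at of Smc1a and 1416162_at of Rad21. The Rad21 probe set 1416162_at read 7.90 and 9.66 in LLC EGFP-high against 7.56 and 8.97 in LLC EGFP-low, and 8.79 and 10.12 in colon26 EGFP-high against 7.97 and 9.09 in colon26 EGFP-low. It was higher in the high array of all 4 pairs, as 20% of all probe sets were, while its arrays numbered 2 stood 1.12 to 1.76 above those numbered 1. Its rise over both lines was 0.72 (SE 0.14, adjusted p = 0.0083 in limma over probe sets), and it also rose in colon26 (0.93, adjusted p = 0.033). The call over both lines ended without LLC pair 2 (0.64, adjusted p = 0.1), colon26 pair 1 (0.78, adjusted p = 0.058) or colon26 pair 2 (0.67, adjusted p = 0.11), in limma. The gene's probe set of highest mean, 1416161_at, had 0.52 in the same fit (adjusted p = 0.053). The third, 1455938_x_at, had 0.00 in LLC and 0.86 in colon26.

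The probe set that fell was 1442103_at of Nipbl, a dim one. It read 5.24 and 3.61 in LLC EGFP-high against 6.02 and 4.25 in LLC EGFP-low, and 5.91 and 4.46 in colon26 EGFP-high against 6.12 and 4.69 in colon26 EGFP-low. It was lower in the high array of all 4 pairs, as 8.69% of all probe sets were, its change being −0.46 over both lines (SE 0.13, adjusted p = 0.049 in limma over probe sets) and −0.71 in LLC (SE 0.18, adjusted p = 0.038). The call over both lines ended under every alternative that kept this probe set, with changes of −0.50 to −0.40 (adjusted p = 0.056 to 1 in limma), and that in LLC under every one but trend and robust moderation. It stood apart from the other Nipbl probe sets, whose changes over both lines were −0.13, −0.13, −0.04 and 0.29, and which did not pass. In LLC 4 probe sets rose and this 1 fell (3.72% and 5.71% of all probe sets), and in colon26 5 rose and 0 fell (1.47% and 1.03%). Without the pair as a block, limma called 0 of the 27 in each of these comparisons. Without either colon26 pair, 0 passed in colon26. With the number alone as a block limma called 4 higher in LLC, 5 higher over both lines and 0 in colon26 (9 at an unadjusted p under 0.05), where 1.65% of all probe sets rose and 2.12% fell in LLC, 2.82% and 1.91% over both lines, and 0.193% and 0.436% in colon26.

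Of the 6 Stag1 probe sets 5 had positive changes over both lines, between 0.26 and 0.35, and 1441724_at had −0.22. That probe set also had the arrays numbered 2 below those numbered 1 by 1.88 to 2.03, while 1421940_at had them above by 1.00 to 1.54. Both Stag2 probe sets were near 0 over both lines (−0.03 and −0.13), and both Smc3 probe sets were positive (0.42 and 0.32). The 3 Smc1a probe sets had 0.50, 0.25 and 0.39, of which the first passed.

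**Figure D4:**
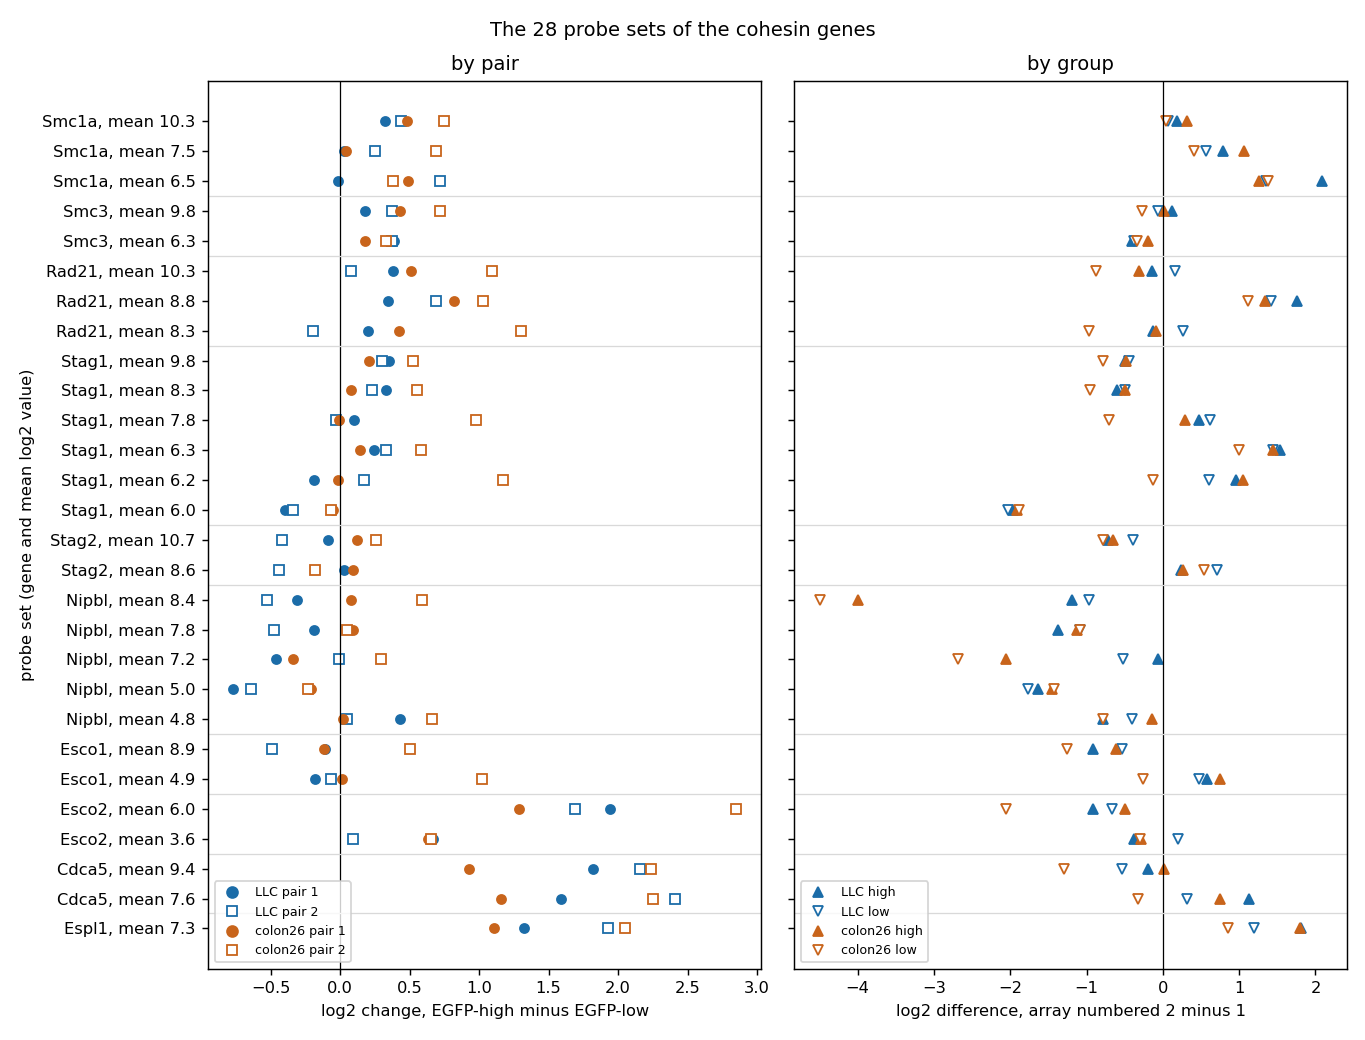
The 28 probe sets of the 10 genes, 1 row each with the gene and its mean log2 value; the left panel gives the log2 change, EGFP-high minus EGFP-low, in each of the 4 pairs, and the right panel the log2 difference of array 2 minus array 1 in each of the 4 groups. The changes of the Cdca5, Espl1 and upper Esco2 rows are above 0.9 in every pair, and the upper Nipbl row has the widest number differences, −3.99 and −4.50 in colon26.

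The change with the sort was next compared between the lines. Of the 10 genes 0 passed limma for the LLC change minus the colon26 change, where 1.41% of all genes did, with 1 at an unadjusted p under 0.05 (0.427% of all genes had a higher and 0.985% a lower change in LLC). That was Nipbl, at −0.76 (SE 0.28, limma adjusted p = 0.26), whose number differences are given above. Esco2, Cdca5 and Espl1 had differences of −0.25, 0.40 and 0.04, with 95% intervals of −1.20 to 0.70, −0.46 to 1.27 and −0.73 to 0.82. All 10 genes changed by more in the colon26 pair numbered 2 than in that numbered 1, as did 68.6% of all genes, whereas in LLC the pair numbered 2 gave the larger change in 4 of 10, as it did in 46.1% of all genes.

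Levels were also compared between the lines within each sort, first without a block, since a block by pair lies within a line, and then with a block by number, which the lines share. The lines differ in tumour, time after inoculation and all else that sets them apart, so a difference cannot be told apart from these. Limma called 0 of the 10 genes in EGFP-high cells (adjusted p from 0.26 to 0.99, 0 at an unadjusted p under 0.05), where 4.33% of all genes were higher and 7.01% lower in LLC. It called 0 in EGFP-low cells (0.17 to 0.92, 1 unadjusted), where 5.81% were higher and 8.19% lower. At an unadjusted limma p under 0.05 there were 2995 of 12177 genes in EGFP-high and 3526 in EGFP-low cells. With the replicate number as a block shared by the lines, Stag1 was higher in LLC than in colon26 in EGFP-high cells by 0.63 (SE 0.17, limma adjusted p = 0.023) and in EGFP-low cells by 0.67 (SE 0.17, limma adjusted p = 0.015). In that fit Rad21 (0.82, adjusted p = 0.027 in limma) and Esco1 (0.66, adjusted p = 0.034) were also higher in LLC EGFP-low than in colon26 EGFP-low cells. In it 15.7% of all genes were higher and 23.5% lower in LLC EGFP-high cells, and 21.0% and 25.2% in LLC EGFP-low cells. On the colon26 EGFP-low arrays numbered 1 and 2, Rad21 read 10.13 and 9.24, and Esco1 9.27 and 8.02. The Rad21 probe set 1416162_at went the other way, with 7.56 and 8.97 in LLC EGFP-low against 7.97 and 9.09 in colon26 EGFP-low. The probe set 1455938_x_at of Rad21 read 8.30 and 8.56 against 8.29 and 7.31.

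Other genes of the cohesin pathway were then read by their roles. Of 24 listed, 23 were on the array, and 20 passed the filter. Over both lines 13 of the 20 rose and 0 fell, with 10 rising in LLC and 6 in colon26, and 0 falling in either, where 7.47% of all genes rose over both lines, 4.98% in LLC and 2.18% in colon26. The median change of the 20 stood at 0.82 for LLC, at 0.69 for colon26 and at 0.81 across the lines, beside 0.04, 0.08 and 0.04 for all genes. Without the pair as a block, 794, 438 and 982 of all 12177 genes were at an unadjusted limma p under 0.05 for LLC, colon26 and across the lines. Of the 20 genes 9, 4 and 9 were, and limma called 0 of the 20 after adjustment. Without the colon26 pair numbered 2, 0 passed in colon26 and 7 across the lines, and without the LLC pair numbered 2, 6 passed in LLC.

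The genes that protect or remove cohesin in mitosis had the largest median change of the roles read here, at 1.78, and all 7 rose over both lines. Aurkb, the kinase of the chromosomal passenger complex, rose by 2.28 (limma adjusted p = 1e-04), and Bub1, the checkpoint kinase whose histone mark recruits shugoshin, by 1.83 (0.00017). The shugoshins Sgo1 and Sgo2a, which shield centromeric cohesin, rose by 1.79 (0.00017) and 1.76 (0.00019). Plk1, the kinase that phosphorylates Stag2 to free arm cohesin, rose by 1.78 (0.0044), Haspin, a histone kinase at centromeres, by 1.54 (7e-05), and Pttg1, the securin that holds separase inactive, by 0.90 (0.0017). Each was higher in 4 of 4 pairs. Plk1 varied with the number, changing by 1.26 (LLC) and 0.46 (colon26) in the pairs numbered 1, and by 2.91 and 2.50 in those numbered 2. On the EGFP-high arrays numbered 1 and 2 it read 6.66 and 10.15 in LLC and 6.94 and 10.31 in colon26. In single lines all 7 rose in LLC and 5 in colon26, where Plk1 (1.48, limma adjusted p = 0.12) and Pttg1 (0.71, limma adjusted p = 0.079) did not pass. The LLC call of Plk1 ended after quantile normalization (limma adjusted p = 0.055), with trend and robust moderation (0.26) and with only the LLC arrays (0.065). For LLC, leaving out a colon26 pair is the same fit as the LLC arrays alone. The LLC calls of Plk1 and Pttg1 also ended without LLC pair 2, with changes of 1.26 and 0.84. Over both lines the calls of Plk1 (1.27, limma adjusted p = 0.16) and Pttg1 (0.91, limma adjusted p = 0.059) ended without colon26 pair 2, and that of Plk1 with trend and robust moderation (0.18). In colon26 the calls of Bub1 and Haspin ended without pair 1, and quantile normalization left Haspin alone. The probes for Aurkb (1424128_x_at) and Pttg1 (1438390_s_at) carry suffixes that mark possible matches to other transcripts.

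The genes that tie cohesion to the replication fork came next. Of 7, 6 rose over both lines, with a median of 0.76, and the other, Chtf8, had 0.39 (limma adjusted p = 0.069). Dscc1, a subunit of the alternative clamp loader that aids cohesion, rose by 1.52 (limma adjusted p = 0.00056), and its partner Chtf18 by 0.91 (0.025). Wdhd1, which links the helicase to the polymerase, rose by 0.87 (0.0015), and Ddx11, a helicase required for cohesion, by 0.76 (0.0035). The fork protection partners Tipin and Timeless rose by 0.75 (0.0084) and 0.68 (0.015). All 7 were higher in 4 of 4 pairs, and Dscc1 alone passed in colon26 while Dscc1, Ddx11 and Wdhd1 passed in LLC. The Chtf18 call rested on single pairs: LLC pair 1 changed by 0.03, and the call ended without LLC pair 2 (0.55, limma adjusted p = 0.17), colon26 pair 1 (1.14, adjusted p = 0.094) or colon26 pair 2 (0.68, adjusted p = 0.31). It also ended with no filter (limma adjusted p = 0.062), after quantile normalization (0.083) and with the number alone as a block (0.06). On the 4 arrays numbered 1 Chtf18 lay under 5, where background limits a change. It read 4.52 and 4.49 in LLC EGFP-high and EGFP-low, and 4.87 and 4.27 in colon26. Without colon26 pair 2 the calls of Ddx11, Timeless and Tipin over both lines ended too (limma adjusted p = 0.055, 0.1 and 0.075), and without LLC pair 2 that of Timeless (0.066). The LLC calls of Ddx11 and Wdhd1 ended without either LLC pair, and the colon26 change of Dscc1 was 0.81 without colon26 pair 2 (limma adjusted p = 0.27) and 0.73 with the mean of its probe sets (0.065).

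The loading and release genes did not pass. Mau2, the partner of Nipbl, had −0.38 over both lines (limma adjusted p = 0.13) and was called lower without colon26 pair 1, and Pds5a, Pds5b and Wapl, which bind the ring and open it, had 0.14, 0.31 and 0.25. Hdac8, which deacetylates SMC3, had 0.08, and Ctcf, the factor that halts cohesin at loop boundaries, had 0.40 (limma adjusted p = 0.081). Of the meiotic subunits Smc1b and Stag3 stayed under 5 on all 8 arrays, and Rec8 passed 5 on 1 array, at 5.29. These 3 were therefore not tested.

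**Figure D5:**
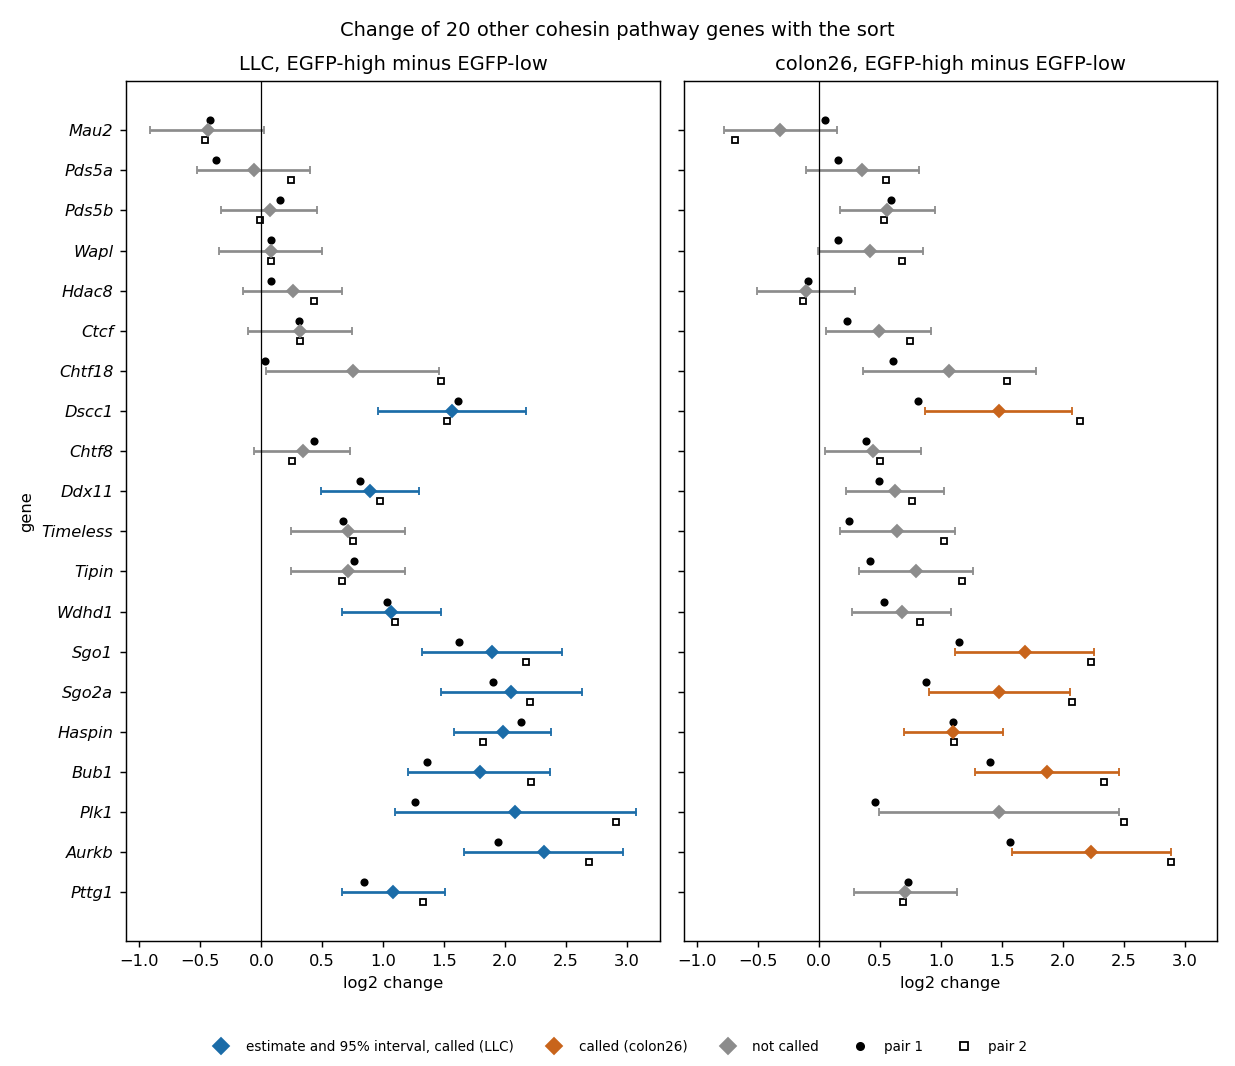
Log2 change, EGFP-high minus EGFP-low, of the 20 other cohesin pathway genes that passed the filter, in LLC (left) and colon26 (right), drawn as for the 10 genes: diamonds with 95% intervals, coloured where called, with pairs 1 and 2 as small circles and squares. Loading and release genes at the top lie between −0.44 and 0.56, and the mitotic genes at the bottom between 0.71 and 2.32.

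The genes whose 4 pair changes were nearest to those of the 3 strongly rising members were looked up among all genes tested, by the mean absolute difference over the 4 pairs, as a description with no test. Nearest to Cdca5 were Ncapg (0.06), Cep55 and Sgo2a (0.08 each), Cdca8 (0.09) and Sgo1 (0.11). Nearest to Espl1 were Eme1 (0.05), Racgap1 (0.07), Spdl1 (0.11), Spc25 (0.13) and Gen1 (0.14). Nearest to Esco2, at wider distances, were Kif2c (0.15), Ddias (0.16), Kif18a and Lrr1 (0.19 each) and Melk (0.21). Ncapg is a condensin subunit, Cdca8 a subunit of the passenger complex, and Racgap1 a part of the central spindle. The roles of most other genes named were not read, and no shared role is drawn from the lists.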

How the data were processed

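RNA of the sorted cells, purified with Trizol, was labelled with biotin as cRNA for 1-colour Affymetrix arrays (per the labels' protocols). The authors deposited log2 values of 45101 probe sets on 8 arrays, made by RMA per the submitters' processing notes; RMA's software and options are not stated there. In the colon26 samples the description field says LLC; titles and cell line fields were followed. The number of arrays limits the precision.

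Probe sets with 1 symbol (34945, symbols updated through RefSeq of GRCm38.p6) were used, without controls and without the 932 with several symbols. A gene's value was its probe set of highest mean, and 12177 genes (21773 probe sets) with a log2 value above 5 on at least 2 arrays were tested with limma 3.58.1 in R 4.3.3. The block was line and number (2 residual degrees of freedom, prior 8.25 over genes). Deviations of same-numbered high and low arrays from their group means correlated at 0.89 (LLC) and 0.84 (colon26) across genes. The same correlation between the lines was 0.84 for the high and 0.74 for the low arrays, so arrays of 1 number deviated together across the lines too. The script was tested on simulated data. Members, lists, motifs and the rule for named genes (the 10 members, pathway genes called over both lines, the 5 genes nearest to Esco2, Cdca5 and Espl1) were chosen with earlier results of these data known; genes named beyond it were chosen after their values were seen. Alternatives were other filters, scalings, moderation and probe set choices, single lines, no block and leaving out each pair; fits on pairs of 1 number and, for the sort, with a block by number shared by the lines were added after seeing the data. Figures used matplotlib 3.10.9 in Python 3.11.15.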

Additional observations from a re-analysis of the deposited data

Results flagged for a closer look

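Stag2, Nipbl and Hdac8 stood out because both LLC pairs moved one way and both colon26 pairs the other, as 14.4% of all genes did. For Stag2 the LLC change minus the colon26 change was −0.44 (limma adjusted p = 0.47), from pair changes of −0.09 and −0.42 in LLC and 0.12 and 0.26 in colon26. For Nipbl it was −0.76 (limma adjusted p = 0.26), from −0.31 and −0.53 in LLC and 0.08 and 0.59 in colon26. For Hdac8, the SMC3 deacetylase, it was 0.36 (limma adjusted p = 0.56), from 0.08 and 0.43 in LLC and −0.09 and −0.13 in colon26. The limma test of the difference was not passed by any of the 3.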

How the results depend on the processing

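Of 577 alternative values for changes of the 10 genes, Gins1 and the named pathway genes called in the paired fit, 577 kept their direction and 446 stayed called. Fits with no block or another block, filter or moderation give the same change by construction, so direction could not turn in them. Leaving out a pair likewise leaves the change of the other line as it was. For that other line it is the same fit as the line's arrays alone, so these alternatives count 1 check more than once. The changes were also picked as called, so the 577 kept directions are no test of robustness. Without the replicate block, 0 of the 10 genes, 0 pathway genes and 0 of the 27 probe sets were called in LLC, in colon26 or over both lines. The pairing by line and number follows the shared numbers; deviations correlated at 0.89 and 0.84 within the lines and at 0.74 and 0.84 between them, so the correlations do not set pairs of a line apart from arrays of the same number. A replicate block by number alone, shared by the lines and added after seeing the data, gave 3 of the 10 genes in each line and 4 over both; pathway genes numbered 10 for LLC, 4 for colon26 and 12 over both, and probe sets 4, 0 and 5. For colon26, quantile normalization left 1 of the 10 genes, 1 pathway gene and 0 probe sets, trend and robust moderation gave 5 of the 10 genes, median centring 11 pathway genes, a filter of log2 7 gave 10, and no filter left 2 probe sets. In fits added after seeing the data, the pairs numbered 1 alone gave 0 of the 10 genes, 0 pathway genes and 3 probe sets over both lines, and the pairs numbered 2 alone 3, 8 and 4. With a replicate block shared by the lines, 1 of the 10 genes differed between the lines in EGFP-high cells and 3 in EGFP-low cells. In that fit 15.7% of all genes were higher and 23.5% lower in LLC in EGFP-high cells, and 21% and 25.2% in EGFP-low cells.

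Leaving out each pair in turn gave 3 of the 10 genes in LLC, 0 to 3 in colon26 and 3 to 4 over both lines; 6 to 11, 0 to 8 and 7 to 13 pathway genes; and 4, 0 to 6 and 2 to 5 probe sets. The comparisons between lines had 0 throughout. A left-out pair leaves 1 pair in its line, assumed to vary like the other line's. The share of all genes called is not given here for these fits, for pairs of 1 number, for other filters or for other moderation. Counts under those settings are therefore not set against all genes, and are not read as particular to the cohesin genes.

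Changes of sign were seen only among values that were not called, of 41 such alternatives. With each pair (or, between lines, each array pair of a line) left out in turn, the values over both lines ranged from −0.12 to 0.05 for Stag2, −0.17 to 0.09 for Nipbl and −0.21 to 0.10 for Esco1, which in colon26 ranged from −0.12 to 0.50. The LLC change minus the colon26 change ranged from −0.20 to 0.11 for Stag1, −1.03 to 0.53 for Esco2, −0.25 to 1.06 for Cdca5 and −0.42 to 0.51 for Espl1. LLC minus colon26 in EGFP-high cells ranged from −0.22 to 0.09 for Smc1a, −0.35 to 0.37 for Stag2, −1.29 to 2.69 for Nipbl, −0.28 to 0.63 for Esco1, −0.54 to 0.36 for Esco2 and −0.40 to 1.42 for Espl1. In EGFP-low cells it ranged from −0.79 to 3.71 for Nipbl, −0.87 to 1.19 for Esco2, −0.35 to 0.95 for Cdca5 and −0.13 to 1.07 for Espl1. Under other settings the sign turned over both lines for Stag2 (0.01 with median centring, 0.02 in the pairs numbered 1), Nipbl (0.03 in the pairs numbered 2) and Esco1 (0.07 with the mean of probe sets, 0.01 in the pairs numbered 2). It turned in the difference of changes for Stag1 (0.16, quantile) and Espl1 (−0.03, centring), in EGFP-high cells for Smc1a (0.07 quantile, 0.05 centring, 0.17 mean of probe sets), Rad21 (−0.22, mean of probe sets) and Esco2 (0.02, centring), and in EGFP-low cells for Smc3 (0.03, centring) and Esco2 (−0.03, mean of probe sets). The cause was not tested.

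Scaling moved the median of all genes for the difference between the lines' changes, which was −0.04, to 0.08 (quantile) and −0.12 (centring), and for LLC minus colon26 in EGFP-low cells, which was −0.07, to −0.11 and 0.12. Dim probe sets are limited by background.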

Other observations

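The same motif search was read in the promoter windows of the other pathway genes, of which 20 of 24 had one. A CHR word (TTTGAA or TTCGAA, either strand) was in the windows of 10 of these 20, and a CCAAT box in 12, beside 19.2% and 37.4% of all windows. By role, the CHR word was in 4 of 6 mitotic genes with a window (Sgo1, Haspin, Bub1 and Plk1), in 0 of 4 fork genes, in 2 of 4 loading and release genes (Mau2 and Pds5b), and in 2 of 4 meiotic genes (Smc1b and Rad21l). It was also in the windows of Hdac8 and Ctcf. The match lay 8 to 31 bases after the annotated start in the 4 mitotic genes. Rises were seen both in genes with the word (Plk1, 1.78 over both lines) and in genes without it (Sgo2a, 1.76), and genes with it included some that did not pass (Ctcf, 0.40, limma adjusted p = 0.081). These are counts of letters, with no test.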
